A study of Mus musculus with 8 samples.

Results

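The genes of glycolysis, lactate handling, pyruvate dehydrogenase and the pentose phosphate pathway were examined in mouse muscle cells depleted of Septin9, a filament-forming cytoskeletal protein. The set held 34 genes of the 42391 entries in the raw count table, each taken as the entry that carries its symbol with no suffix. The genes were chosen by their place in these pathways and with the Septin9 siRNA values in view, in particular the lower Gpi1 level in C2C12 cells. The C2C12 values of the 34 genes are therefore given as a description without a test, and counts of calls there are printed with nothing read from them.

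Polyadenylated RNA was sequenced from 2 kinds of mouse myoblast that had received a non-targeting siRNA (control) or one against Septin9. Each condition had 2 replicates, which made 8 libraries. C2C12 cells, an established myoblast line, were collected 60 h after transfection, the last 12 h of them in differentiation medium. The siRNA was at 100 nM for the initial 5 h and then at 50 nM until the cells were re-plated in fresh medium. Primary myoblasts, isolated from mouse muscle and grown on Matrigel, were collected 48 h after transfection in proliferation medium, at an siRNA dose that the labels do not give. Cell type, medium, differentiation and time after transfection differ together between the C2C12 and the primary myoblast libraries and cannot be told apart.

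Glycolysis splits glucose into pyruvate in the cytosol, and the pentose phosphate pathway branches off at glucose 6-phosphate to yield NADPH and ribose. Pyruvate either enters mitochondria through the pyruvate dehydrogenase complex, which kinases switch off and phosphatases switch on, or is reduced to lactate and exported. Skeletal muscle carries its own isozymes for several steps, such as muscle-type phosphofructokinase, whose levels are known to rise as myoblasts become muscle fibres.

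The siRNA sequences that bear on these genes are shown first, because a member of the set and Septin9 itself hold the same 7 bases. A guide strand pairs with other messages mainly through its bases 2 to 8, and the capitals mark the complement of those bases, where the siRNA sequence given in the methods was read as the sense strand. Each site is written 5′ to 3′ as 19 bases of the transcript.
Septin9, coding sequence: ccaacggcattGACGTGTa
Gpi1, last exon, after the coding sequence: ggaagggctttGACGTGTc
Hk2, last exon, within the coding sequence: ctccgaaatgtGACGTGTc
The Septin9 site is the siRNA target and matches all 19 bases, with its capitals at chr11:117356365-117356371 on the plus strand of GRCm38. In Gpi1 the capitals lie at chr7:34202216-34202222 on the minus strand, in exon 18 of 18, and 9 bases in a row match the target. In Hk2 they lie at chr6:82727399-82727405 on the minus strand, also in exon 18 of 18, with 8 matching bases in a row. Gpi1 was the 1 gene of the 34 with this heptamer after its coding sequence, as annotated in GENCODE release M21. Among the genes tested in primary myoblasts that had such sequence, 438 of 13133 (3.34%) held the heptamer, and their median log2 fold change was -0.12 against 0.01 for the others. In C2C12 cells 402 of 12221 (3.29%) held it, with a median of -0.12 against 0.00. After the Septin9 siRNA 292 of the 438 were lower in primary myoblasts and 303 of the 402 in C2C12 cells, where 51.7% and 49.8% of all genes tested were higher. Of the genes with at least 9 matching bases in a row, 44 of 59 were lower in primary myoblasts and 44 of 51 in C2C12 cells. That length equals the run found in Gpi1, and Gpi1 is itself counted in all of these groups. A match of letters does not show that the siRNA bound there, and whether the siRNA acted on Gpi1 directly was not tested.

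Between 20898611 and 27223414 reads were counted on genes per library. Septin9 fell to 38.9% of control in C2C12 cells and to 43.3% in primary myoblasts in the edgeR fits, with adjusted p = 5.11e-09 and 0.000134. The 34 genes took 0.833% to 1.13% of the counts in C2C12 libraries and 1.27% to 1.42% in primary myoblast libraries. The labelled cell type was checked with 7 myogenic markers, all of which were detected in every group, with summed levels of 1058 to 1815 CPM (counts scaled to a common library size by TMM) in C2C12 and 3307 to 6194 in primary myoblast libraries. Endothelial, blood and adipocyte marker lists summed to at most 35.8 CPM in any library. The 7 fibroblast markers summed to 12.5 and 13.5 CPM in replicate 1 of the primary myoblasts but to 95.9 and 98.2 in replicate 2, in control and Septin9-deficient cells alike. In the C2C12 libraries, which come from a myoblast line, the same sum was 126.8 to 165.4 CPM. The sums differed in makeup. In C2C12 control replicate 1, Cd34 and Ly6a held 91.6 and 34.1 CPM, Pdgfra 9.42, Dcn 0.50 and Thy1 0. From replicate 1 to 2 of the primary myoblast controls, Pdgfra went from 1.03 to 31.7 CPM and Dcn from 0.26 to 13.4. Thy1 went from 0.52 to 8.55 CPM, Cd34 from 4.77 to 27.4 and Ly6a from 6.92 to 14.4. Whether fibroblasts were present was not tested. Within a cell type, genes were tested with edgeR (quasi-likelihood F test, replicate as a blocking term) and called at a Benjamini-Hochberg adjusted p under 0.05 over all genes tested.

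Gpi1, the isomerase that turns glucose 6-phosphate into fructose 6-phosphate, was lower after the Septin9 siRNA in every replicate pair of both cell types. In C2C12 cells its level was 299 and 297 CPM in the control replicates and 174 and 179 CPM in the Septin9-deficient ones. The fitted C2C12 log2 fold change was -0.76 ± 0.07 (SE), or 59% of control, and the pairs gave -0.81 and -0.72. Primary myoblasts held 547 and 422 CPM of Gpi1 in the controls, compared with 380 and 253 CPM in Septin9-deficient cells. The control and Septin9-deficient levels did not overlap in either cell type. In primary myoblasts, Gpi1 fell to 64.7% of control, a log2 fold change of -0.63 ± 0.13 (SE, adjusted p = 0.00629), with -0.55 in pair 1 and -0.71 in pair 2. Of the 438 primary myoblast genes with the heptamer, 22 lay at or below this value, as did 14 of 402 in C2C12 cells at the C2C12 value. Gpi1 itself is in both counts. The share of genes without the heptamer at or below these values was not counted, so nothing is read from them. An exon of Gpi1 overlaps Gm26762 on the other strand, and whether reads were counted by strand is not given in the sources used here.

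**Figure D1:**
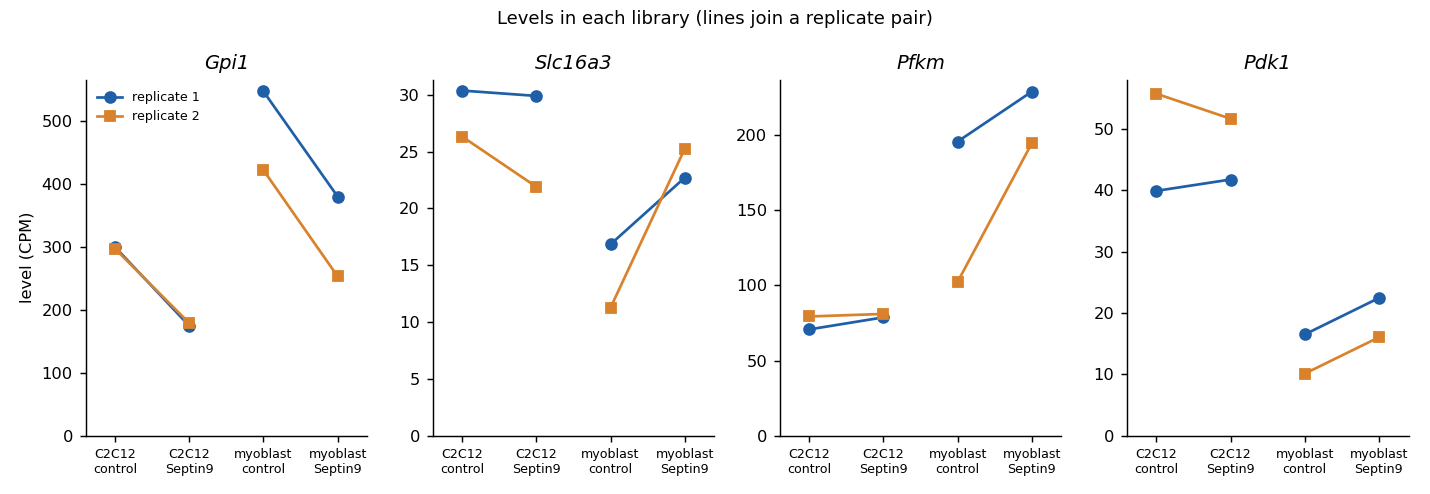
Levels of Gpi1, Slc16a3, Pfkm and Pdk1 in CPM (vertical axes, from 0) in control and Septin9-deficient cells, with a line joining the libraries of each replicate pair. Gpi1 falls along all 4 lines, while the other 3 genes rise along both primary myoblast lines, from 16.8 to 22.7 and from 11.3 to 25.2 CPM for Slc16a3.

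Of the 34 genes, 3 were called higher and 1 lower in primary myoblasts, where 3.95% of the 17117 genes tested were called higher and 1.04% lower. Gpi1 was the lower one, and the higher ones were Slc16a3, Pfkm and Pdk1. With an added threshold of a 1.5-fold change, Slc16a3 stayed among the differentially expressed genes (2.87% of all tested were higher by this rule) and so did Gpi1 (0.298% were lower). The median log2 fold change was 0.06 over the 34 genes and 0.01 over all genes tested, and 19 of the 34 values were positive. Without replicate 1 the median of the 34 was -0.03. In both replicate pairs 12 genes were higher and 12 lower. In C2C12 cells, whose values entered the choice of the set, Slc16a1 (1 gene) was past the threshold upward and Gpi1 (1 gene) downward, beside 2.64% and 4.12% of the 15814 genes tested, and nothing is read from these counts. There the median was -0.06, against 0.00 over all genes tested, and 32 of the 34 genes changed by under 0.3 on the log2 scale.

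**Figure D2:**
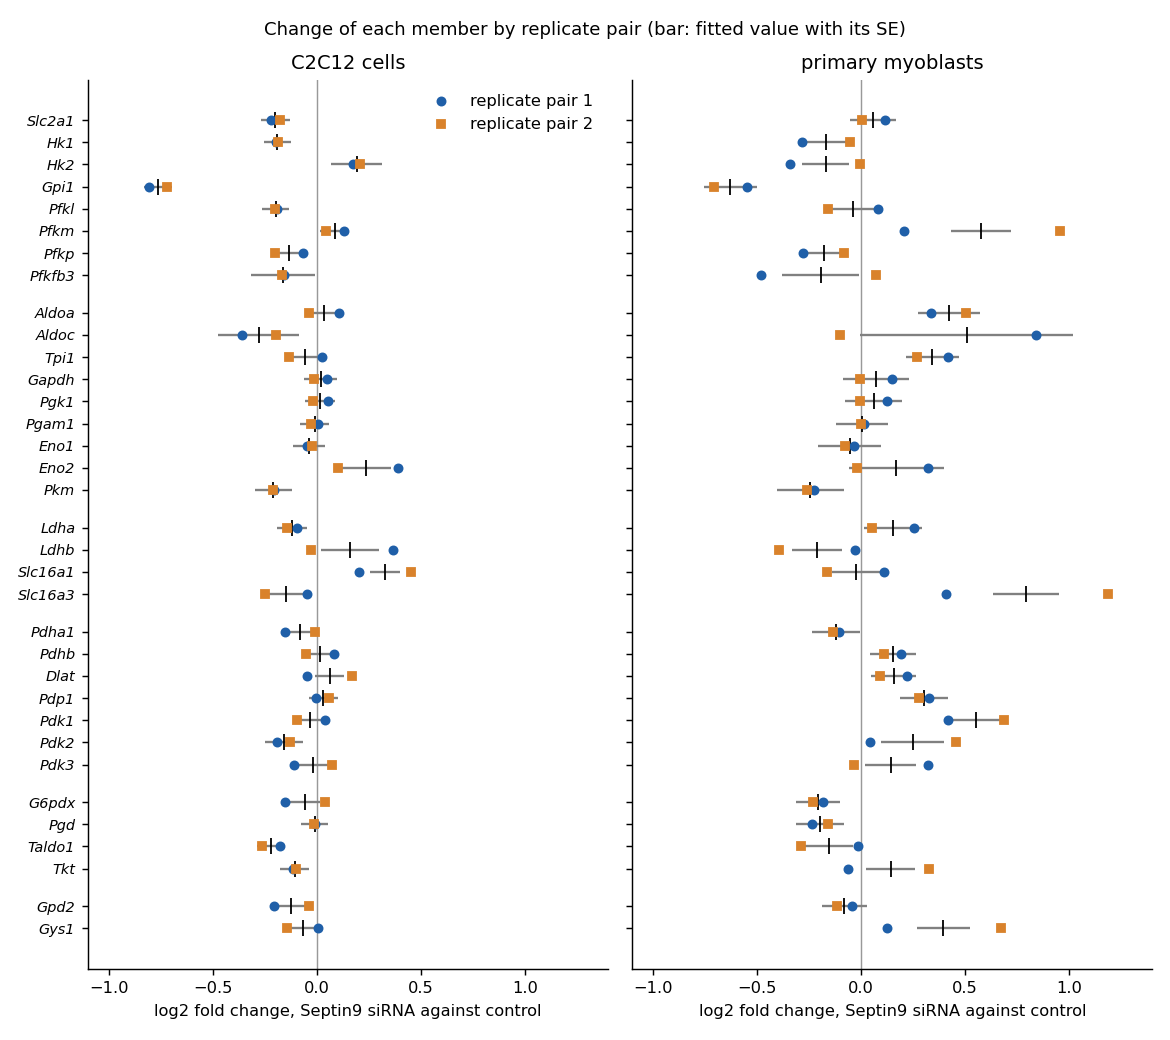
Log2 fold change after the Septin9 siRNA (horizontal axes) of each of the 34 genes in C2C12 cells and primary myoblasts, with circles and squares for replicate pairs 1 and 2 and a black tick with a grey line for the fitted value and its SE. Gpi1 stands apart on the left of the C2C12 panel at -0.76, and the largest distances between pairs are in primary myoblasts, such as 0.20 and 0.95 for Pfkm.

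Among the genes of glucose uptake and the entry steps, Pfkm, the muscle form of phosphofructokinase, which commits sugar to glycolysis, rose in primary myoblasts. Its level was 196 and 102 CPM in the control replicates and 229 and 195 CPM in the Septin9-deficient ones. The control replicates lay far apart, and the Septin9-deficient level of replicate 2 was just below the control level of replicate 1. The log2 fold change of Pfkm was 0.58 ± 0.14 (SE, adjusted p = 0.0256), and the pairs gave 0.20 and 0.95. Without replicate 2 it was 0.22, from the remaining pair alone. In C2C12 cells Pfkm measured 70.7 and 79.3 CPM in control cells, compared with 78.8 and 81.0 CPM in Septin9-deficient cells. The other phosphofructokinases, the liver form Pfkl and the platelet form Pfkp, had log2 fold changes of -0.04 and -0.18 in primary myoblasts, neither called, and of -0.20 and -0.13 in C2C12 cells. Slc2a1, the basal glucose transporter, measured 29.1 and 61.6 CPM in the primary myoblast controls and 32.0 and 60.5 CPM after the Septin9 siRNA, so its levels followed the replicate rather than the siRNA. In C2C12 cells Slc2a1 went from 83.8 and 61.5 CPM to 73.3 and 53.8 CPM. Hk1 and Hk2, hexokinases that trap glucose in the cell, had primary myoblast log2 fold changes of -0.17 each, and Pfkfb3, which makes an activator of phosphofructokinase, had -0.19. None of these 3 was called. The C2C12 values were -0.19 for Hk1, 0.19 for Hk2 and -0.16 for Pfkfb3, each with the same sign in both pairs.

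The genes from aldolase to pyruvate kinase include the most abundant messages of the set, and none of these 9 was called in primary myoblasts. Gapdh, which oxidises glyceraldehyde 3-phosphate, measured 2447 and 2415 CPM in the primary myoblast controls and 2751 and 2358 CPM in Septin9-deficient cells. The groups overlapped, and the log2 fold change of Gapdh was 0.07 ± 0.16 (SE). Aldoa, the muscle aldolase, measured 1521 and 1059 CPM in control cells, compared with 1952 and 1472 CPM in Septin9-deficient primary myoblasts, and Tpi1, triose phosphate isomerase, 422 and 325 against 571 and 384 CPM. Both were higher in each pair, with log2 fold changes of 0.42 (adjusted p = 0.126) and 0.34 (adjusted p = 0.147), which missed the threshold. Pkm, pyruvate kinase, was lower in each pair of both cell types, with a log2 fold change of -0.24 in primary myoblasts (adjusted p = 0.507) and -0.21 in C2C12 cells. The remaining glycolytic kinase and mutase, Pgk1 and Pgam1, and the enolase Eno1 stayed between -0.06 and 0.06 in primary myoblasts and between -0.04 and 0.02 in C2C12 cells. The neuronal enolase Eno2 and the brain aldolase Aldoc were scarce. Aldoc had 7 to 19 counts in each primary myoblast library, and its value of 0.51 carried an SE of 0.51.

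Slc16a3, the monocarboxylate transporter that exports lactate from glycolytic muscle, had the largest increase of the set in primary myoblasts. It measured 16.8 and 11.3 CPM in the control replicates and 22.7 and 25.2 CPM in the Septin9-deficient ones, so both Septin9-deficient libraries lay above both controls. The log2 fold change of Slc16a3 was 0.79 ± 0.16 (SE, adjusted p = 0.00613), with 0.41 in pair 1 and 1.19 in pair 2. Without replicate 1 it was 1.17 and without replicate 2 it was 0.43, each from the remaining pair alone. In C2C12 cells Slc16a3 measured 30.4 and 26.3 CPM in control cells, compared with 29.9 and 21.9 CPM in Septin9-deficient cells. Slc16a1, the related transporter that moves lactate in either direction, is given for C2C12 cells as a description without a test. C2C12 cells held 166 and 141 CPM of Slc16a1 in the controls and 194 and 192 CPM in Septin9-deficient cells. The log2 fold change of Slc16a1 there was 0.33 ± 0.07 (SE), with 0.20 in pair 1 and 0.45 in pair 2. In primary myoblasts Slc16a1 measured 157 and 114 CPM in control cells, compared with 172 and 99.5 CPM in Septin9-deficient cells, with a log2 fold change of -0.02 and pairs of opposite sign. Ldha and Ldhb, the lactate dehydrogenase subunits that predominate in glycolytic muscle and in heart, had log2 fold changes of 0.15 and -0.21 in primary myoblasts, neither of them called, and of -0.12 and 0.16 in C2C12 cells.

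In the pyruvate dehydrogenase group, Pdk1, a kinase that switches the complex off, rose in primary myoblasts. Its control replicates held 16.5 and 10.1 CPM and the Septin9-deficient ones 22.4 and 16.0 CPM. The Septin9-deficient level of replicate 2 fell just short of the control level of replicate 1, although each pair rose. The log2 fold change of Pdk1 was 0.55 ± 0.14 (SE, adjusted p = 0.0247), with 0.42 and 0.69 in the pairs. In C2C12 cells Pdk1 was higher in level, at 39.9 and 55.7 CPM in control cells, compared with 41.7 and 51.6 CPM in Septin9-deficient cells, and its log2 fold change was -0.03. The other kinases Pdk2 and Pdk3 had primary myoblast log2 fold changes of 0.25 and 0.14 and C2C12 values of -0.16 and -0.02. Pdp1, the phosphatase subunit that switches the complex on, measured 25.2 and 26.3 CPM in control cells, compared with 32.2 and 31.3 CPM in Septin9-deficient primary myoblasts. These levels did not overlap, but the log2 fold change of 0.30 missed the threshold (adjusted p = 0.166). The subunits of the complex itself, Pdha1, Pdhb and Dlat, had values of -0.12, 0.15 and 0.16 in primary myoblasts and of -0.08, 0.01 and 0.06 in C2C12 cells, with none called.

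The pentose phosphate genes changed little. G6pdx, the enzyme of the first NADPH-yielding step, measured 108 and 117 CPM in control cells, compared with 96.2 and 97.5 CPM in Septin9-deficient primary myoblasts. The groups did not overlap, but the log2 fold change of -0.21 was not called (adjusted p = 0.355). Pgd, of the second such step, had -0.20 in primary myoblasts and -0.01 in C2C12 cells, and Taldo1, a transaldolase of the non-oxidative branch, -0.15 and -0.22. Tkt, the transketolase of that branch, differed mainly between replicates. Its primary myoblast levels were 35.6 CPM in control and 34.6 in Septin9-deficient cells of replicate 1, but 89.9 and 111 CPM in replicate 2. Slc2a1 and Tkt were thus higher in the replicate whose fibroblast marker sum was higher. Whether fibroblasts were present, or had a part in these levels, was not tested. Outside these pathways, Gpd2, the mitochondrial glycerol phosphate dehydrogenase, had log2 fold changes of -0.08 in primary myoblasts and -0.13 in C2C12 cells. Gys1, the muscle glycogen synthase, measured 163 and 83.7 CPM in control cells, compared with 180 and 131 CPM in Septin9-deficient primary myoblasts, a log2 fold change of 0.40 that was not called (adjusted p = 0.0908).

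Muscle differentiation markers moved in the same libraries. Their list was chosen with earlier results of these data known. It holds Myog, Mymk and Tnni1, which the study reports as upregulated here, so the counts are not independent of that report. In primary myoblasts 15 of the 16 markers tested were called higher after the Septin9 siRNA, beside 3.95% of all genes tested. Their median log2 fold change was 0.85, with Myh8, the perinatal myosin, at 1.39 and Ckm, creatine kinase, at 1.15. In C2C12 cells 10 of 15 were called higher, beside 2.64% of all genes tested, with a median of 0.72. The median ratio of the markers was 0.53 in primary myoblast pair 1 and 1.20 in pair 2. The median ratio of the 34 genes ran the other way, at 0.095 in pair 1 and -0.007 in pair 2. Within the set, Pfkm, Slc16a3, Pdk1 and Gys1 had their larger ratio in pair 2. Between the primary myoblast controls, replicate 2 was lower than replicate 1 by 1.68 on the log2 scale in the median marker. The same difference, replicate 2 minus replicate 1, was -0.94 for Pfkm, -0.58 for Slc16a3, -0.70 for Pdk1 and -0.96 for Gys1. It was -0.52 for Aldoa and -0.49 for Pdk2, also with the larger ratio in pair 2. For Eno2, Slc16a1, Pdhb and Tpi1 it was -0.54, -0.47, -0.44 and -0.38, but their larger ratio was in pair 1. The median of the 34 genes had -0.04. The control of replicate 2 enters both measures, so a low value there raises the pair 2 ratio by itself. Of 14 proliferation markers, 2 were called lower in primary myoblasts and 7 in C2C12 cells, with medians of -0.32 and -0.23. Over all genes tested, 1.04% and 4.12% were called lower. The part of differentiation in the changes of the 34 genes was not tested, and in bulk RNA more differentiated cells and more RNA per cell cannot be told apart.

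Related genes outside the set were counted by list. Over all genes tested in primary myoblasts, 3.95% were called higher and 1.04% lower. Of 21 other glycolysis and lactate genes tested there, 3 were called higher and none lower. They were Slc2a4, the insulin-regulated glucose transporter, at a log2 fold change of 1.35, Pgam2, the muscle phosphoglycerate mutase, at 0.96, and Slc2a6, another transporter, at 0.86. Of 17 glycogen genes 4 were called higher, with Pygm, the muscle phosphorylase, at 0.67, Stbd1, which binds glycogen, at 0.67, Gyg, which primes it, at 0.51 and Ugp2, which makes the sugar donor, at 0.49. Of 8 other pentose phosphate genes H6pd, an enzyme of the endoplasmic reticulum, was called at 0.44, and none of 8 other genes of pyruvate entry was called. Of 15 targets of the hypoxia-inducible factor outside glycolysis, Bnip3 (0.64) and P4ha1 (0.51) were called higher, and the median of the list was -0.16. None of 13 targets of Nrf2, a regulator of NADPH-forming enzymes, was called. In C2C12 cells these 6 lists, in the order above, held 18, 15, 8, 8, 14 and 13 tested genes. Of these 1 was called higher, Stbd1 at 0.34, and 3 were called lower, beside 2.64% and 4.12% of all genes tested. The lower ones were Gpd1l, a glycerol phosphate dehydrogenase, at -0.72, Ndrg1, a hypoxia-induced gene, at -0.52 and Pgm2l1, a phosphoglucomutase relative, at -0.49.

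The levels in the controls were compared next, which shows how the pathways were set in the kinds of myoblast without Septin9 depletion. Levels were set against each other between genes per exon length, in TPM, the length-scaled share of a library's transcripts, computed from the raw counts. By the unsuffixed entries, Gapdh came first in both controls, with 2843 and 2390 TPM in C2C12 cells and 3865 and 3868 TPM in primary myoblasts. Pkm came second, with 3018 and 2038 TPM in C2C12 cells and 3311 and 2848 TPM in primary myoblasts, so its C2C12 range overlapped that of Gapdh. Aldoa, Eno1, Ldha and Pgk1 took the next places, at 1679, 1608, 1197 and 995 TPM on average in primary myoblasts, where the ranges of Aldoa and Eno1 overlapped, and at 879, 1111, 771 and 932 TPM in C2C12 cells, where all 4 overlapped with a neighbour. Gpi1 took rank 9 in primary myoblasts and rank 10 in C2C12 cells, with mean levels of 399 and 275 TPM. The lowest mean levels in the C2C12 controls were those of Pfkfb3 at 3.49 and Aldoc at 4.06 TPM, and in the primary myoblast controls those of Aldoc at 0.32 and Eno2 at 3.16 TPM. Neighbours in this order had overlapping ranges in 23 of 33 cases in C2C12 cells and 19 of 33 in primary myoblasts.

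**Figure D3:**
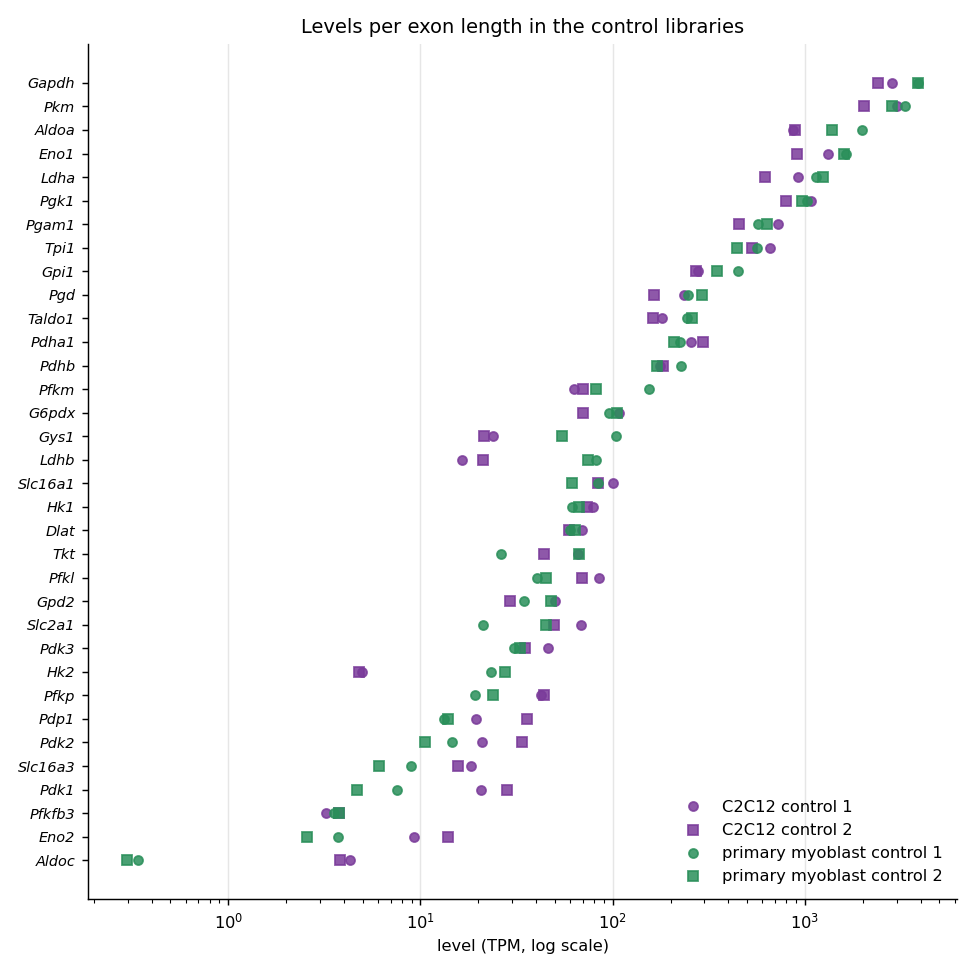
Levels of the 34 genes in TPM (horizontal axis, log scale) in the 4 control libraries, ordered by their mean in primary myoblasts, with 1 symbol per library. Hk2, Ldhb and Gys1 lie to the left in C2C12 cells and Aldoc, Eno2, Pdk1 and Slc16a3 to the right.

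Between the controls, 6 of the 34 genes were called higher in C2C12 cells and 8 lower (edgeR's quasi-likelihood test, 2 libraries per cell type), where 16.2% and 18.3% of the 17103 genes tested were called. The median log2 difference, C2C12 minus primary myoblasts, was -0.21 over the 34 genes (0.04 without C2C12 control replicate 2) and -0.01 over all genes tested. Lower in C2C12 cells was Hk2, the insulin-responsive hexokinase of muscle, with 10.5 and 10.2 CPM against 55.6 and 64.6 CPM in primary myoblasts, a log2 difference of -2.55 ± 0.16 (SE, adjusted p = 0.00307). Ldhb had 8.06 and 10.5 CPM against 45.0 and 40.7 CPM, a difference of -2.22 ± 0.20 (SE, adjusted p = 0.00505). Gys1 had 32.8 and 30.0 CPM against 163 and 83.7 CPM, a difference of -1.98 ± 0.35 (SE, adjusted p = 0.0161). The other genes called lower were Aldoa at -1.11, Ldha at -0.81, Gapdh at -0.73, Taldo1 at -0.72 and Gpi1 at -0.71. Hk2 and Ldhb were called under every alternative setting.

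Higher in C2C12 cells was Aldoc, with 4.78 and 4.31 CPM against 0.430 and 0.372 CPM, a log2 difference of 3.48 ± 0.35 (SE, adjusted p = 0.00587). Pdk1 was higher by 1.84 ± 0.32 (SE, adjusted p = 0.0156), with all 4 control levels given above. Eno2 was higher by 1.71, with 9.65 and 14.8 CPM against 4.43 and 3.01 CPM, and Slc16a3 by 1.00, Pfkp by 0.83 and Pfkl by 0.68. Without the C2C12 control replicate 2, none of the 6 genes was called higher, and Hk2 and Ldhb alone were called lower, while calls over all genes fell from 2778 higher and 3123 lower to 267 and 245. Without the C2C12 control replicate 1, Hk2 and Ldhb were called lower, Aldoc of the 6 was still called higher and Pdp1 was called in addition, with 827 higher and 729 lower over all genes. The 16 differentiation markers were all lower in the C2C12 controls, with a median log2 difference of -6.87, and Pgam2 and Pygm, the muscle forms outside the set, had -6.17 and -5.62.

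The forms of an enzyme took different shares in the cell types. Hk2 made up 5.93% and 6.14% of the hexokinase message (Hk1 and Hk2, per exon length) in the C2C12 controls and 27.6% and 29.2% in the primary myoblast controls. After the Septin9 siRNA the C2C12 share of Hk2 was 7.53% and 7.90%, above both controls, and the primary myoblast share was 26.8% and 30.0%. Pfkm made up 33.3% and 38.2% of the phosphofructokinase message in the C2C12 controls and 72.2% and 54.2% in the primary myoblast controls. Septin9-deficient C2C12 cells had a Pfkm share of 37.7% and 42.3%, and Septin9-deficient primary myoblasts one of 75.3% and 71.5%, so it was higher in all 4 pairs, with the widest gap in replicate 2 of the primary myoblasts. Ldha made up 93.4% to 98.2% of the message of Ldha and Ldhb in the 8 libraries. Among the 4 pyruvate dehydrogenase kinases, Pdk4, which lies outside the set, led in every library, with 43.9% to 59.1% of their message in C2C12 cells and 49.3% to 60.4% in primary myoblasts. Pdk3 came next, at 20.2% to 23.5% in C2C12 cells and 23.0% to 30.5% in primary myoblasts, and Pdk1 held 10.5% and 16.4% in the C2C12 controls against 5.65% and 4.34% in the primary myoblast controls. Eno1, by its unsuffixed entry alone, made up 53.5% and 53.0% of the enolase message in the C2C12 controls. In the primary myoblast controls it made up 48.2% and 55.6%. Nearly all of the rest came from Eno3, the muscle enolase, also outside the set. The unsuffixed entry held 38.9% and 39.0% of the counts of both Eno1 entries in the C2C12 controls, against 62.2% and 61.4% in the primary myoblast controls. The enolase shares thus leave out much of the counts under this symbol, more so in C2C12 cells. Shares with both entries summed were not computed.

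**Figure D4:**
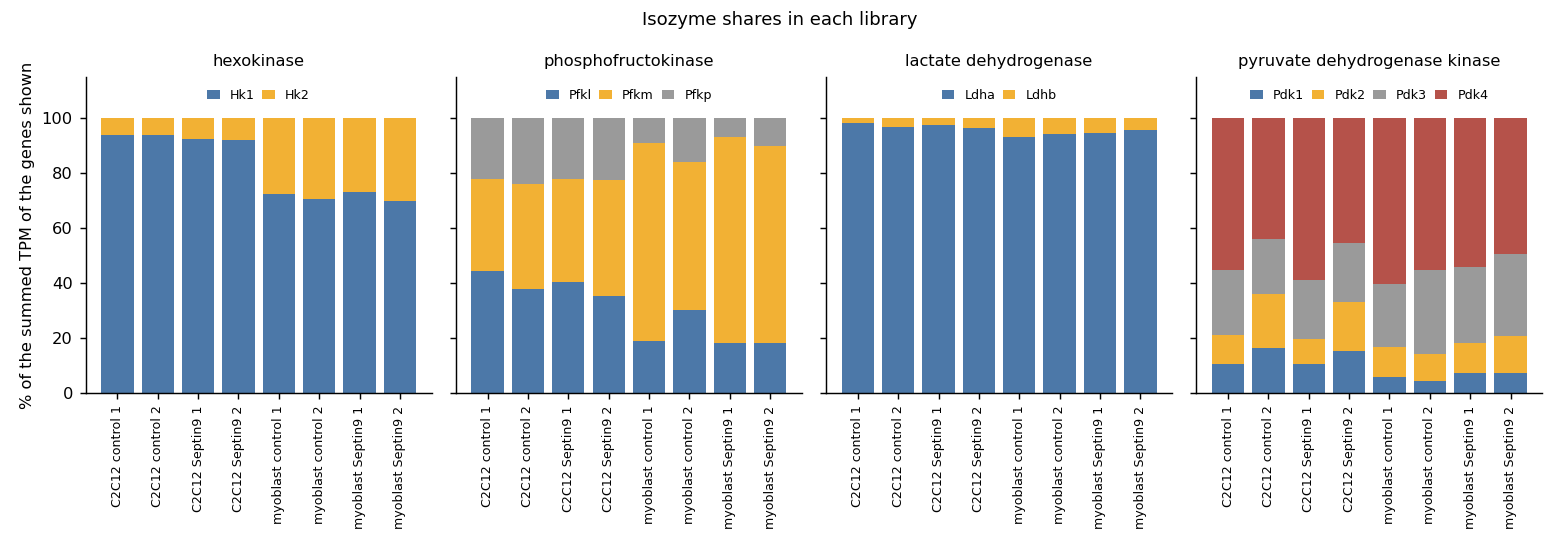
Share of each gene in the summed TPM of the genes shown in its panel (vertical axis, percent, stacked bars from 0) in each of the 8 libraries. The Hk2 share is 5.93% to 7.90% in C2C12 libraries and 26.8% to 30.0% in primary myoblast libraries, and Pfkm takes 54.2% to 75.3% of the phosphofructokinase bar in primary myoblast libraries.

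Eno1, Pgd and Hk2 each had a further entry in the table under the same symbol with a suffix, and for Eno1 and Pgd the counts divided between the entries in a way that differed by cell type, while the Hk2 shares overlapped. The unsuffixed Eno1 entry held 38.9% and 39.0% of the counts of both entries in the C2C12 controls and 62.2% and 61.4% in the primary myoblast controls. The 95% Wilson intervals, which cover counting error only, ran from 38.5% to 39.2% in C2C12 control replicate 1 and from 61.8% to 62.6% in primary myoblast control replicate 1. The Pgd entry held 46.3% and 46.4% against 53.6% and 53.4%, and the Hk2 entry 81.6% and 86.6% against 82.2% and 81.1%. After the Septin9 siRNA the Eno1 share was 38.4% and 38.9% in C2C12 cells, 63.2% and 61.5% in primary myoblasts, and the Pgd share 46.2% and 46.0%, then 53.7% and 53.3%. The Hk2 share was 83.0% and 81.1% in C2C12 cells, against 86.6% in the control of pair 2 with overlapping intervals, and 83.0% and 82.4% in primary myoblasts. Eno1 alone had a log2 difference between controls of -0.70 (adjusted p = 0.0604), whereas both entries summed had -0.04 (adjusted p = 0.907). For Pgd the difference was -0.61 alone and -0.41 summed, neither called, and for Hk2 it was -2.55 alone and -2.59 summed. The TPM ranks and the shares of enzyme forms given above rest on the unsuffixed entries. With both entries summed at the exon length of Eno1, Eno1 had 3361 and 2335 TPM in the C2C12 controls, against 2837 and 2386 TPM for Gapdh, so its mean was the higher one and the ranges overlapped. In the primary myoblast controls the summed Eno1 level was 2609 and 2584 TPM, below Gapdh and Pkm. What sets the division was not tested.

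**Figure D5:**
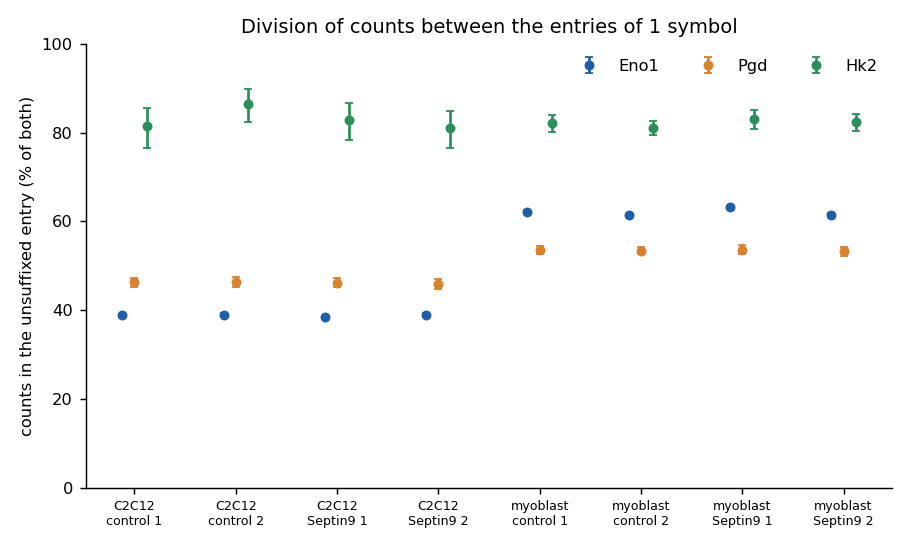
Percent of the counts of both entries that lie in the unsuffixed entry (vertical axis, 0 to 100) for Eno1, Pgd and Hk2 in each of the 8 libraries, with 95% Wilson intervals. Eno1 sits at 38.4% to 39.0% in the 4 C2C12 libraries and at 61.4% to 63.2% in the 4 primary myoblast libraries.

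A promoter of 300 bases, from 250 before to 50 after the annotated start, was available from RefSeq on GRCm38.p6 for 33 of the 34 genes. The letters ACGTG, the core of the site of the hypoxia-inducible factor, were present on either strand in 19 of them (57.6%), against 28.5% of the 12362 promoters of genes tested in the controls and 21.8% of all 27025 promoters. The E-box CACGTG, which contains ACGTG and is bound by Myc among other factors, was present in 5 of the 33 (15.2%), against 11.2% and 8.09%. Of the genes called in primary myoblasts, Pfkm and Slc16a3 held ACGTG, Pfkm also held CACGTG, and Gpi1 and Pdk1 held neither in this window. These matches describe the sequence alone.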

How the data were processed

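RNA-seq of 8 mouse samples was used. The authors mapped reads to GRCm38.p6 (mm10) with STAR 2.7.2 and counted them per gene with featureCounts 2.0.1, per the submitters' processing notes, and deposited raw counts of all samples. A normalized signal per cell type was deposited too, made by the authors as ComBat-Seq batch-corrected counts divided by DESeq2 (1.40.1) size factors, from which whole counts were recovered for 100% of values (within 0.01 of a count). The 16 broken lines of the raw table were left out. The 34 genes and all other lists were chosen with earlier results of these data known. All 34 passed the filters on low counts.

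Each cell type was fitted alone in R 4.3.3 with edgeR 4.0.16 (TMM, filterByExpr, glmQLFit, glmQLFTest), with the replicate number as a block, since the study's methods describe independent experiments. Same-numbered samples deviated together from their group means (correlation across genes 0.678 for C2C12, 0.820 for primary myoblasts). The 4 controls were fitted without a block. An interaction fit used all 8 samples. P-values were adjusted by Benjamini-Hochberg over all genes tested, and SEs were derived from the F statistic. CPM were scaled by TMM over all 8 samples, and the log2 ratios of pairs used a prior count of 2. TPM used the union of exons of the basic coding transcripts (of all transcripts where a gene had none) in GENCODE M21, which matched 30066 entries and 92.5% to 93.3% of counts. The p-values rest on 2 samples per condition. Within a cell type the block takes up the spread between the replicates. The p-values there measure how far the ratios of the pairs disagree, with dispersion shared across genes. For the controls, without a block, they measure the spread between the libraries of a cell type. Of the 34 genes, 14 have an exon that overlaps another gene, 12 of them on the other strand, and strandedness of the counting is not given in the sources used here.

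Named genes were all 34 members, Septin9, and of each other list up to 4 called genes with the largest absolute log2 fold change. Alternatives were RLE or library-size scaling, a minimum of 10 counts in each sample, no filter, an adjusted p under 0.01, no block (a block for the controls), DESeq2 1.42.0, DESeq2 on the deposited batch-corrected counts, 1 fit of all 8 samples and each replicate left out. Summing the further entries was added after the data were examined. The fits were tested on simulated data. Tables and plots were made in Python 3.11.15 (pandas 2.3.3, numpy 2.4.6, matplotlib 3.10.9).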

Additional observations from a re-analysis of the deposited data

Results flagged for a closer look

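In 5 of the 34 genes both C2C12 pairs moved one way and both primary myoblast pairs the other way. Over all genes tested, both pairs had the same sign in 62.5% in C2C12 cells and in 61.9% in primary myoblasts. The share of all genes that moved in opposite ways between the cell types was not counted, so nothing is read from the number 5. The fitted difference in log2 fold change, C2C12 minus primary myoblasts, was -0.93 for Slc16a3, whose C2C12 pairs gave -0.05 and -0.25 and whose primary myoblast pairs gave 0.41 and 1.19. It was -0.40 for Pdk2, with -0.19 and -0.13 against 0.04 and 0.46. For Ldha it was -0.26, for Slc2a1 -0.24 and for Hk2 0.37, with Hk2 the 1 gene of the 5 that was higher in C2C12 cells. Several of these pair ratios lie close to 0, such as 0.002 for Slc2a1 and -0.005 for Hk2 in pair 2 of the primary myoblasts. No p is given for these differences, because the C2C12 values entered the choice of the genes. Over all 17918 genes the edgeR interaction test called 0 (1469 had an unadjusted p under 0.05), and DESeq2 called 21, none of them among those of the 34 to which it gave an adjusted p.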

How the results depend on the processing

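Precision was limited by 2 replicates per condition, and for Aldoc also by depth, with 7 to 19 counts in each primary myoblast library. In primary myoblasts, the 3 genes called higher became 0 with RLE size factors, library size alone, no replicate block or DESeq2, 5 with no filter and 1 at an adjusted p under 0.01. Over all genes, the 676 called higher became 247, 177, 0 and 210 under the first 4 of these settings, and 972 with no filter. The adjusted p of Pfkm, Slc16a3 and Pdk1 was 0.111, 0.0564 and 0.0691 with RLE size factors and 0.0715, 0.0732 and 0.408 with DESeq2. Each reached 1 at the highest, with no replicate block. The log2 fold changes kept their direction. The 1 gene called lower, Gpi1, became 0 with no replicate block and 2 in DESeq2 run on the authors' batch-corrected counts, and Gpi1 itself was called in 10 of 11 alternatives. Leaving out replicate 1 or 2 gave 3 to 6 called higher and 1 to 3 lower.

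In C2C12 cells, as a description of values that entered the choice of the set, the 1 gene called higher became 0 with no replicate block, DESeq2 or all 8 samples in 1 fit, and 0 when either replicate was left out. The 1 called lower became 3 with no filter, 0 with no replicate block and 2 in DESeq2 run on the authors' batch-corrected counts, and 0 to 1 when a replicate was left out.

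Between the controls, the 6 called higher and 8 called lower became 1 and 2 at an adjusted p under 0.01, and the 8 became 4 with a replicate block, for which the labels give no pairing between cell types. Leaving out 1 control gave 0 to 5 higher and 2 to 6 lower, with 267 to 2213 and 245 to 2547 over all genes, and the median of the 34 genes was 0.04 without C2C12 control replicate 2 against -0.21. No called gene changed direction under the alternatives run, and the median of the 34 in primary myoblasts turned from 0.06 to -0.03 without replicate 1. In fits that leave out a control, the lone sample is assumed to vary like the others. In fits that leave out a replicate within a cell type, 1 pair of that cell type remains. The spread is then taken from the libraries of the other cell type, so calls there do not show that the pairs agree. The causes were not tested.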

Other observations

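The division of counts between entries of 1 symbol was not particular to Eno1 and Pgd. Of 710 pairs of an entry and its first further entry with at least 100 counts in each, the share in the unsuffixed entry differed between the C2C12 and primary myoblast controls by at least 10 percentage points, with replicates within 5 points, in 109 (15.4%).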
